A study of Mus musculus with 3 samples.

Results

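The S100A calcium-binding proteins described here are 9 genes of the matrix, S100a1, S100a4, S100a6, S100a8, S100a9, S100a10, S100a11, S100a13 and S100a16, taken by symbol from 31053 genes. All 9 were found, and each had unique molecular identifier (UMI) counts in at least 1 cell class. Single-cell RNA sequencing (scRNA-seq, droplet capture with 3′ counting) was done on dissociated brain tissue of mice of the strain given as C56BL6, 10 weeks old by the labels. The paper names the profiled tissue as striatum. The 3 libraries were control brain, ischemic stroke made by middle cerebral artery occlusion with reperfusion, and hemorrhagic stroke made by collagenase injected into the right striatum, each from tissue of 8 mice. No source used here says how long after stroke this tissue was taken. The libraries lie in 1 matrix, where a barcode suffix separates them (called library 1, 2 and 3), and no label or method pairs a suffix with a condition. Values are therefore given over all cells and by suffix, conditions were not compared, and no test was run.

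S100 proteins are small calcium sensors with paired EF-hand motifs that work mostly as dimers. S100A8 and S100A9 form calprotectin, an abundant cytosolic complex of neutrophils that is released as a danger signal and binds TLR4 and AGER. S100A10 is the exception that binds no calcium and instead joins annexin A2 at membranes. S100A4, S100A6 and S100A11 are linked to cell movement and the cytoskeleton, and S100B, the best known member in brain, marks astrocytes and oligodendrocyte lineage cells.

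The genes lie in 2 groups on mouse chromosome 3 (build GRCm38, annotation GENCODE M21). S100a1, on the minus strand at chr3:90511034-90514392, and S100a13, on the plus strand at chr3:90514435-90524581, stand head to head with 42 bases between them. S100a16, S100a4, S100a6, S100a8 and S100a9 follow, the last at chr3:90692632-90695721. S100a11, from 93520488, and S100a10, from 93555080, form the other group, 2825 kb further on. S100a8, on the plus strand at chr3:90668978-90670035, and S100a9, on the minus strand, are neighbours 22.6 kb apart. Their upstream sequences are shown because these genes had nearly the same pattern over cell classes. Both are from RefSeq windows of build GRCm38.p6, end at the last base outside any annotated exon and run 5′ to 3′ on the gene's strand. Capitals mark matches to TTGCNNAA, a letter pattern of the C/EBP type, and none of them shows that a factor binds.
S100a8 (chr3:90668821-90668977, plus strand): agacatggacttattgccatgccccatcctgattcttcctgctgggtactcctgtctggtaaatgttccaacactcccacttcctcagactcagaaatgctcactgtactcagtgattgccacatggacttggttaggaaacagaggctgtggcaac
S100a9 (chr3:90695722-90695971, minus strand): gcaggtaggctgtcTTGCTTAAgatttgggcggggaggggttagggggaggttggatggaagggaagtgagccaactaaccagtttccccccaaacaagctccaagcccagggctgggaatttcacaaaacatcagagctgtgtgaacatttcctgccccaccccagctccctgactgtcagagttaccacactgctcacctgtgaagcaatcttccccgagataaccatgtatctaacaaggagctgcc
The S100a9 stretch of 250 bases held 1 match, and the S100a8 stretch of 157 bases held 0. On both strands, TTGCNNAA was present in 9.56% of all 32851 RefSeq windows of 250 bases before a start, TGANTCA (AP-1 type) in 6.75% and TATAAA in 12.4%. Neither printed stretch held TGANTCA or TATAAA, though the S100a8 window held 1 TATAAA in the part not printed, where exons are annotated.

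Of 35968 barcodes, 31982 (88.9%) had at least 1000 UMIs and at most 30% mitochondrial UMIs and were kept, with a median of 6147 UMIs. Libraries held 69270514 to 105957232 UMIs, and 110 barcode sequences occurred in 2 libraries and 0 in all 3. Cells were put in classes by raw UMIs of 4 to 7 marker genes, none of them an S100 gene, and 4445 cells (13.9%) stayed ungated. A class name below means cells that are like that type by these markers. The 14 classes with at least 50 cells ranged from 85 smooth muscle cells to 10465 microglia. In each, at least 3 of its markers had a UMI in 25% or more of the cells. In the neuron class, led by Avp and Scg2, 0 of its 5 markers were among the 10 leading genes. The libraries differed in make-up: library 3 held 1085 of 1107 endothelial cells and 135 of 138 pericytes but 22 of 2430 T cells, and library 1 held 212 of 291 neutrophils. Levels are counts per 1000000 UMIs (CPM) of the summed UMIs of a class, and intervals are exact Poisson intervals at 95% that cover counting error only. Levels of 1 gene are compared between classes, not levels of different genes.

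Among the 14 classes, S100a8, S100a9, S100a6 and S100a11 were highest in neutrophils. S100a4 and S100a10 were highest in T cells, with NK cells next. S100a1 and S100a16 were highest in oligodendrocyte precursors, and S100a13 was highest in endothelial cells, where its interval overlapped that of oligodendrocyte precursors. S100a4, S100a8 and S100a9 had a UMI in 25% or more of the cells of only 1 of the 14 classes. S100a13 was the most widespread, at 25% or more in 11 classes and under 10% in 0. The lowest level of S100a13 was 13.97 CPM in neurons and its median over the classes was 128 CPM.

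**Figure D1:**
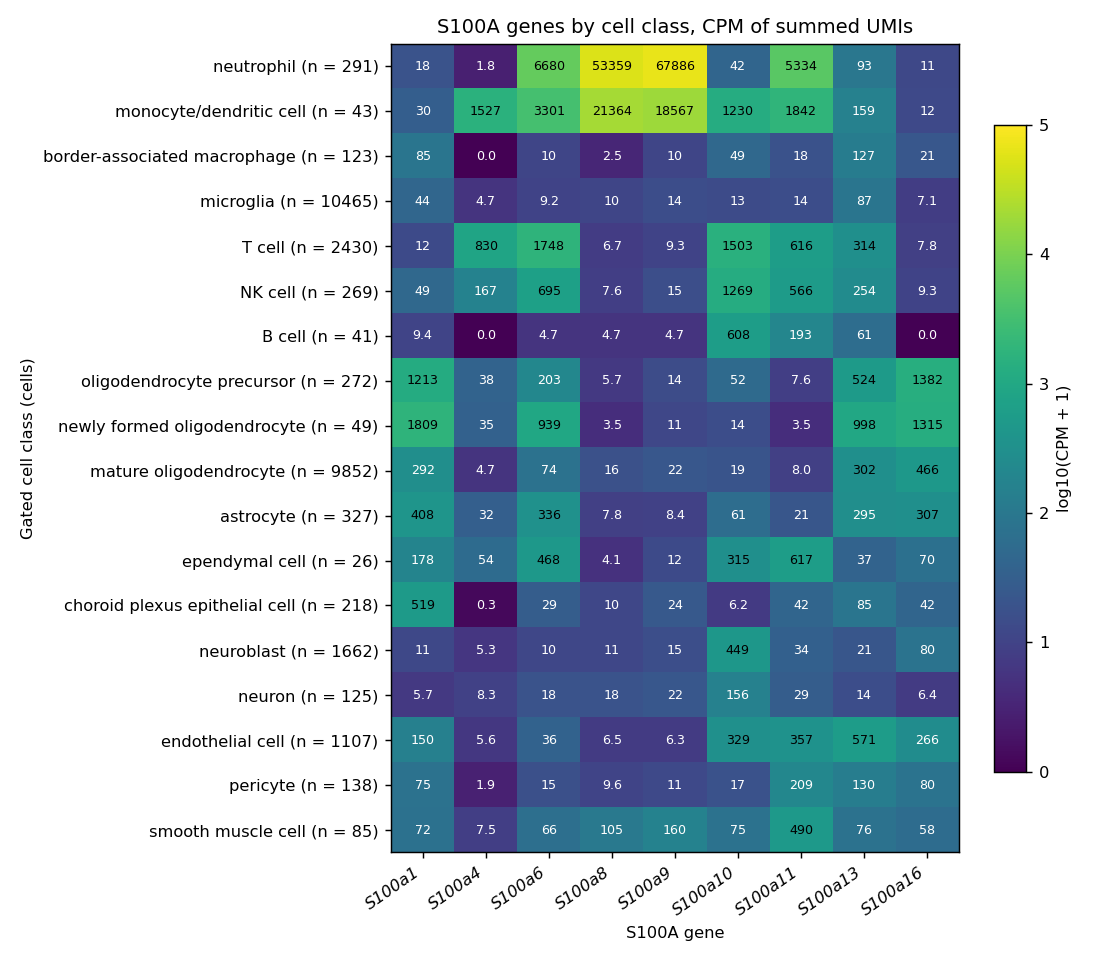
Levels of the 9 S100A genes (columns) in 18 gated cell classes (rows, with the number of cells), as CPM of summed UMIs printed in each cell and coloured as log10(CPM + 1). S100a8 and S100a9 stand at 53359 and 67886 CPM in neutrophils, and the oligodendrocyte rows share S100a1, S100a13 and S100a16.

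S100a8 and S100a9, the subunits of calprotectin, made up a large part of all RNA counted in neutrophils. S100a8 stood at 53359 CPM (52936 to 53785) and S100a9 at 67886 CPM (67409 to 68366) over 291 neutrophils, and they had a UMI in 97.9% and 98.3% of these cells. Together they were a median of 7.29% of the UMIs of a neutrophil, from 1.07% at the 10th percentile to 20.9% at the 90th and 49.9% in the highest cell. By library, S100a8 stood at 37239 CPM in library 1, 29578 in library 2 and 141863 in library 3. S100a9 stood at 51497, 53355 and 149652 CPM. Library 3 was the high one for both genes, with only 25 neutrophils but a median of 6150 UMIs in each, against 3076 in library 1 and 2478 in library 2. The mean count of the granule gene Ngp was also higher there, at 43.2 UMIs per neutrophil against 0.189 and 3.15. Over all libraries, only 15 of 291 neutrophils had 3 or more UMIs of Camp, Ltf or Ngp, so few cells carried this mean. The part of the depth or Ngp difference in the levels was not tested. Without library 3, S100a8 was 35956 and S100a9 51808 CPM. Without library 1, they were 90206 and 105350 CPM, so the pooled levels depend on how many neutrophils each library gave. The share of S100a9 in the UMIs of both genes also differed by library, at 58.0% (57.7 to 58.4), 64.3% (63.5 to 65.2) and 51.3% (50.9 to 51.8, Clopper-Pearson intervals).

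S100a6 and S100a11 were the other members high in neutrophils. S100a11, a binder of annexin A1, was at 5334 CPM (5201 to 5470) and had a UMI in all 291 cells (100%, at least 98.7%). By library it was 5126, 4473 and 6950 CPM, a narrow spread next to that of S100a8. S100a6, calcyclin, was at 6680 CPM (6531 to 6832), with 4560, 3734 and 18166 CPM by library. As for S100a8, library 3 was the high one, and without library 1 the pooled level was 11526 CPM. In contrast, S100a4 was almost absent from neutrophils, with 2 UMIs in all (1.75 CPM), and S100a10 was at 42.1 CPM. Neutrophils that carried early granule genes (Camp, Ltf or Ngp, 3 or more UMIs) numbered 15, too few to compare with the rest.

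Monocyte-like and dendritic-like cells were gated together by Ccr2, Chil3, F10 and dendritic genes, and numbered 43. They split by calprotectin genes. In 7 cells, all from library 3, S100a8 stood at 65115 and S100a9 at 56631 CPM, while the other 36 cells had 26.4 and 2.93 CPM. The 7 cells were uneven, with 25 to 8554 UMIs of both genes together per cell and a median of 942. All 7 had a UMI of Chil3, Ccr2 and F10. Genes of neutrophils were present in part: all 7 had a neutrophil gate marker, Lcn2 and Mmp8, 4 had Il1r2, 3 had Cxcr2, 1 had Ngp and 0 had Retnlg. Their median depth was 19397 UMIs, against 9340 in the other 36. Of the 36 others, 26 had Cd209a and 30 had H2-Ab1, genes of antigen presenting cells. S100a4 did not split them, at 1519 CPM in the 7 cells and 1531 CPM in the 36. The division at 10 UMIs was chosen after the values were seen, so the calprotectin difference is a description. S100a6 (5920 and 2023 CPM), S100a10 (1549 and 1075) and S100a11 (2528 and 1508) had the same order. With the 7 cells included, the class was at 1527 CPM for S100a4, 3301 for S100a6, 1230 for S100a10 and 1842 for S100a11.

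Outside the neutrophil and monocyte gates, S100a8 and S100a9 were low, and in the largest classes their level differed more between libraries than between classes. Over all libraries, 4.75% (4.34 to 5.19) of 9852 mature oligodendrocytes, which are not known to make calprotectin, had an S100a9 UMI. Thinned to 1000 UMIs per cell, the share was 1.15%, against 97.6% of neutrophils. Median depth was 6176 UMIs in the oligodendrocytes and 3060 in the neutrophils. A few cells carried most of these counts. In 13 microglia and 14 oligodendrocytes with at least 10 UMIs of both genes together, a limit set after the values were seen, lay 58.7% and 63.0% of the class's calprotectin UMIs. Of these cells, 11 and 11 also had a neutrophil marker UMI.

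Without such cells, the S100a9 count per cell was compared in the 4 classes with the most cells over all libraries. In library 1 it was 0.111 UMIs per microglia, 0.0907 per mature oligodendrocyte, 0.109 per neuroblast and 0.108 per T cell. In library 2 the same classes had 0.0140, 0.0149, 0.0139 and 0.0118. In library 3 they had 0.0600, 0.0614, 0.0645 and, over 22 T cells, 0.0909, and the 1085 endothelial cells there had 0.0562. Thus library 1 was the highest and library 2 the lowest in microglia, oligodendrocytes, neuroblasts and T cells. Gated neutrophils numbered 212, 54 and 25 in libraries 1, 2 and 3. Those neutrophils also differed in S100a9, at a mean of 193, 158 and 1121 UMIs per cell in the same libraries. Their number alone therefore does not give the neutrophil RNA of a library. Whether the low counts follow the summed neutrophil RNA of a library was not tested. The mix of the genes was also close to that of the neutrophils of the same library in most of these classes. In oligodendrocytes without the high cells, S100a9 was 55.7% (50.5 to 60.8) of both genes in library 1, 55.0% (44.7 to 65.0) in library 2 and 51.2% (46.5 to 55.8) in library 3. These intervals included the neutrophil values of 58.0%, 64.3% and 51.3%. The library 1 interval also included the 51.3% of library 3, and the library 2 interval included all 3 values. They are therefore too wide to match a library's counts to its own neutrophils. In microglia the shares were 59.4% (55.3 to 63.4), 51.7% (43.3 to 60.0) and 49.2% (42.6 to 55.7), so that of library 2 was below the neutrophil value. Counts at this level were not read as expression in those cells, and the part of free RNA in them was not tested.

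**Figure D2:**
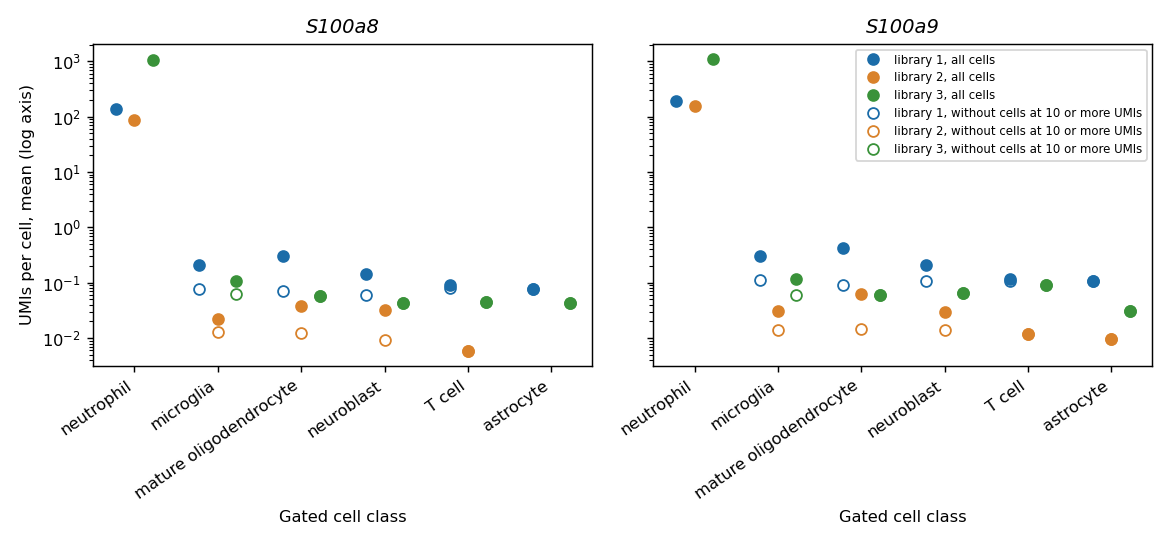
Mean S100a8 (left) and S100a9 (right) UMIs per cell in 6 gated classes, on a log axis, with 1 point per library. Filled points are all cells, open points leave out cells with 10 or more UMIs of both genes (a point at 0 is not drawn, and equal values coincide), and outside neutrophils library 2 lies below library 1 in every class drawn.

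Among the classes with at least 50 cells, the class next after neutrophils was set by 1 cell. Smooth muscle cells stood at 105 CPM for S100a8 and 160 CPM for S100a9, but 1 of the 85 cells, from library 2, held 172 UMIs of both genes, or 97.2% of the class's count. Without it, 0 S100a8 UMIs were left, and S100a9 was 0.0595 UMIs per cell. In choroid plexus cells 1 cell held 79 of the 91 S100a9 UMIs behind a level of 24.5 CPM. Microglia, the resident macrophages of brain, had 10.3 CPM of S100a8 and 14.1 CPM of S100a9, and border-associated macrophages had 2.51 and 10.0 CPM. Ungated cells held 27.5% of all S100a8 and 24.3% of all S100a9 UMIs, against 59.4% and 64.9% in gated neutrophils.

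Among the classes with at least 50 cells, S100a4 and S100a10 were highest in T cells. Both were also high in the 43 monocyte-like and dendritic-like cells, with a UMI in 88.4% and 90.7% of them. There S100a4 was at 1527 CPM, above its level in T cells, and S100a10 was at 1230 CPM, below its level in T cells. S100a4, known as fibroblast-specific protein and found in moving cells, stood at 830 CPM (815 to 846) in 2430 T cells and 167 CPM (148 to 188) in 269 NK cells, a gap of 4.96 times. It had a UMI in 62.9% of T cells, 23.0% of NK cells and 0 of 41 B cells (which allows up to 14.1 CPM), and the tenth of T cells with the most UMIs held 53.8% of its count. Per library, T cells had 882, 798 and 310 CPM, with 22 cells in library 3. No UMI was found in 123 border-associated macrophages, which allows up to 3.76 CPM, and only 4.72 CPM in microglia. By share of all its UMIs, 68.1% of S100a4 lay in T cells. In mature oligodendrocytes S100a4 stood at 8.22, 6.23 and 1.10 CPM in libraries 1, 2 and 3, where T cells numbered 878, 1530 and 22. Levels this low were not read as expression, and the part of free T cell RNA in them was not tested.

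S100a10, the partner of annexin A2, was at 1503 CPM (1482 to 1524) in T cells, 1269 (1217 to 1324) in NK cells and 608 (507 to 722) in B cells. It was found in 96.0% of T cells, 97.8% of NK cells and 68.3% of the 41 B cells. Of the 129 UMIs in B cells, 1 cell held 56. Unlike S100a4, S100a10 had a further level in the nervous system, at 449 CPM (437 to 462) in neuroblasts, young migrating neurons marked by Dcx and Dlx genes. Neuroblasts had 485, 409 and 459 CPM in the 3 libraries, each above the pooled 329 CPM (318 to 341) of endothelial cells. Neurons had 156 CPM, of which 1 cell held 103 of the 246 UMIs.

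S100a6 and S100a11 were also high in lymphocytes. S100a6 stood at 1748 CPM in T cells and 695 CPM in NK cells, and at 4.71 CPM, 1 UMI, in B cells. S100a11 stood at 616 CPM (603 to 630) in T cells and 566 CPM (531 to 603) in NK cells. S100a11 was further present along blood vessels, at 490 CPM in smooth muscle cells, 357 in endothelial cells and 209 in pericytes, with intervals apart from each other. The 95% intervals of NK cells and smooth muscle cells (438 to 546) overlapped for S100a11.

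Among T cells, the members did not pass the 2-fold limit used here, a ratio of (CPM + 10) with 20 or more UMIs over both groups. Dividing against non-dividing T cells (188 and 1893 cells) had 0 of 9 members past the limit in either direction, against 5.48% of genes higher and 1.08% lower. S100a4 was 1148 and 701 CPM there, and S100a6 was 2496 and 1511 CPM. For S100a6 the gap came mostly from library 1, at 3290 and 1537 CPM, since library 2 had 1563 and 1498, and without library 2 it passed the limit.

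CD8 against CD4 T cells (1318 and 224 cells) had 0 of 9 members higher and 0 lower by 2-fold, where 0.583% of all genes were higher and 0.885% lower. The pooled values hid a contrast between libraries. In library 1, CD4 cells exceeded CD8 cells in S100a4, at 2071 CPM (1974 to 2172) and 596 CPM (569 to 625). In library 2 the order was the other way, at 625 CPM (562 to 693) and 882 CPM (856 to 909). Without library 2, S100a4 passed the limit as lower in CD8 cells. S100a6 also changed its order between libraries, at 2976 and 2066 CPM for CD4 and CD8 cells in library 1 and 903 and 1789 CPM in library 2. S100a10 (2040 and 1268 CPM) and S100a11 (864 and 479 CPM) were likewise higher in CD4 than CD8 cells of library 1. In library 2 they were 1514 and 1647 CPM and 604 and 648 CPM, with overlapping intervals. CD4 cells numbered 110 in library 1 and 111 in library 2. In library 1 the tenth of CD4 cells with the most UMIs held 57.7% of S100a4, with a median of 4 UMIs and up to 158 in 1 cell, so a minority of cells carried the level. NK cells showed no such contrast, at 166 and 173 CPM of S100a4. Neutrophil markers together were 16.9 CPM in CD4 and 2.57 CPM in CD8 cells, and S100a4 in neutrophils was 1.75 CPM. Monocyte and dendritic markers together were 55.7 CPM in CD4 and 35.9 CPM in CD8 cells, that class had 1527 CPM of S100a4 and 3301 CPM of S100a6, and the part of these cells in the values was not tested.

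**Figure D3:**
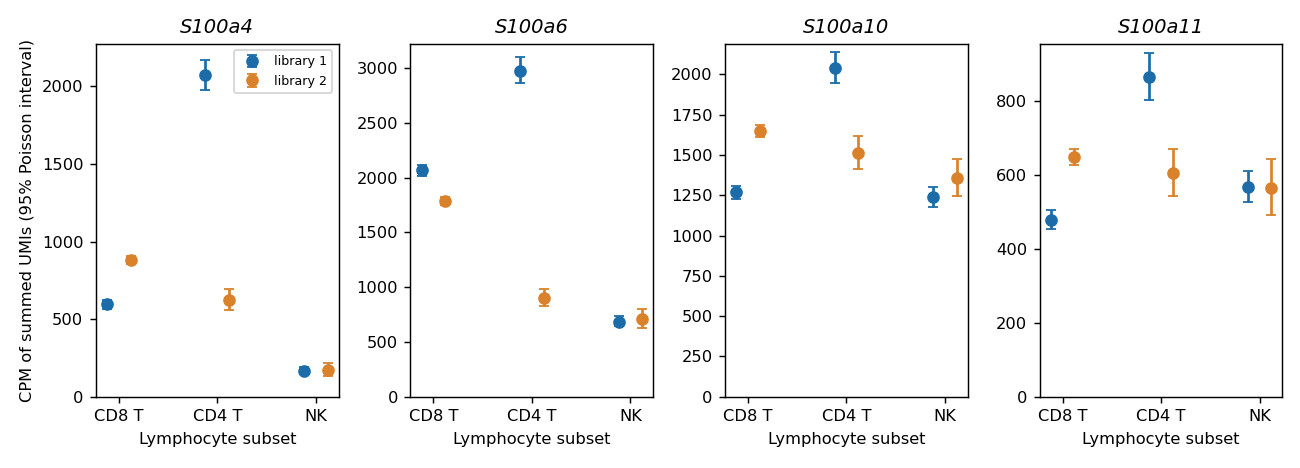
CPM of S100a4, S100a6, S100a10 and S100a11 in CD8 T cells, CD4 T cells and NK cells of libraries 1 and 2, with exact 95% Poisson intervals as bars. CD4 cells of library 1 are the highest point for all 4 genes (S100a4 at 2071 CPM), and NK cells differ little between libraries.

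S100a1, S100a13 and S100a16 shared the oligodendrocyte lineage. S100a1, best known from heart and skeletal muscle, was at 1213 CPM (1159 to 1268) in 272 oligodendrocyte precursors and 292 CPM (288 to 296) in mature oligodendrocytes. In 49 newly formed oligodendrocytes, marked by Gpr17, Enpp6 and Bmp4, it was at 1809 CPM (1700 to 1923). S100a13, which takes part in the release of FGF1 and IL1A, was at 524, 998 and 302 CPM in precursors, newly formed and mature cells, and so also peaked in between. S100a16 was at 1382 CPM (1325 to 1441), 1315 (1223 to 1413) and 466 (461 to 471), so precursors and newly formed cells had overlapping intervals. S100a6 was at 203, 939 and 74.4 CPM along the same classes. For S100a1, S100a6, S100a13 and S100a16 the mature cells were the lowest of the 3. S100a16 in mature cells was nearly the same in all libraries, at 463, 472 and 462 CPM, whereas S100a1 was 402, 323 and 191 CPM. Precursors had S100a1 at 1324, 1243 and 800 CPM, lowest in library 3 as well.

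S100a1 also reached 519 CPM (496 to 542) in choroid plexus epithelium, found in 94.5% of its cells, where S100a4 was at 0.269 CPM and S100a10 at 6.19 CPM. Astrocytes had 408 CPM of S100a1, 336 of S100a6, 295 of S100a13 and 307 of S100a16. S100a6 was uneven among them: 38.5% of 327 astrocytes had a UMI, and the tenth with the most held 76.1% of the count. By library it was 121, 342 and 393 CPM in astrocytes. Astrocytes with a Gfap UMI numbered 28, too few to compare with the rest. Neurons were lowest of the 14 classes in S100a1 (5.72 CPM), S100a13 and S100a16 (6.35 CPM). Their intervals overlapped those of neuroblasts for S100a1 and S100a13 and those of microglia for S100a16.

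Among mature oligodendrocytes, S100a6 was the only member past the 2-fold limit between Klk6-positive and Klk6-negative cells. It had a UMI in 55.5% of the positive and 18.3% of the negative cells. In 1331 cells with 2 or more UMIs of Klk6, a protease gene of a mature oligodendrocyte subset, S100a6 was at 160 CPM (154 to 167). In 7807 cells with 0 it was at 49.6 CPM (47.7 to 51.7), a ratio of 2.85. The order held in all 3 libraries, at 191 and 74.7 CPM, 178 and 50.6 CPM, and 116 and 33.1 CPM. Median depth was 9883 UMIs in the positive and 5738 in the negative cells. Thinned to 1000 UMIs, 12.7% of Klk6-positive and 4.33% of Klk6-negative cells had a UMI, so the gap was present at equal depth too. Thus 1 of 9 members was higher and 0 lower, where 0.815% of all genes tested were higher and 0.364% lower. S100a1 (447 and 246 CPM), S100a13 (422 and 265) and S100a16 (620 and 414) were under the limit and in the same order in all 3 libraries. Markers of newly formed oligodendrocytes were 322 and 128 CPM in these groups, and their part in the S100a6 gap was not tested. S100b, in no gate and not an S100A gene, was at 1688 and 81.2 CPM, and Anxa5 at 302 and 35.8 CPM.

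Arterial endothelial cells had 3 of 9 members higher and 0 lower than the other endothelial cells, where 1.59% of genes were higher and 0.303% lower. They were 178 cells with 2 or more UMIs of Bmx, Sema3g, Gkn3 and Fbln5, against 810 cells with 0. S100a10 was at 535 CPM (505 to 565) and 239 CPM (228 to 252). S100a6 was at 93.3 CPM (81.3 to 106) and 16.2 CPM (13.2 to 19.6). S100a4 was at 20.02 CPM (14.7 to 26.6) and 0.951 CPM (0.349 to 2.07), the latter from 6 UMIs. It had a UMI in only 7.30% of the arterial and 0.370% of the other cells. S100a11, at 519 and 293 CPM, was under the limit, and S100a13 was level at 573 and 573 CPM. Median depth was 10480 and 5361 UMIs, and after thinning to 1000 UMIs S100a10 was found in 30.9% and 11.4% of the cells and S100a6 in 8.43% and 1.48%. After thinning, S100a4 was found in 2.25% and 0.247% of the cells. Nearly all of these cells, 173 and 793, were from library 3, so no other library gave a comparison. Markers of smooth muscle cells together were 188 CPM in the arterial and 13.2 CPM in the other cells, and those of pericytes were 385 and 149 CPM. The part of either in the result was not tested. Smooth muscle cells themselves had 74.9 CPM of S100a10, below both endothelial groups. S100a6 was at 65.9 CPM and S100a4 at 7.49 CPM in smooth muscle cells, below the arterial values and above the other endothelial values. Pericytes had 17.2 CPM of S100a10, 15.3 CPM of S100a6 and 1.92 CPM of S100a4.

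**Figure D4:**
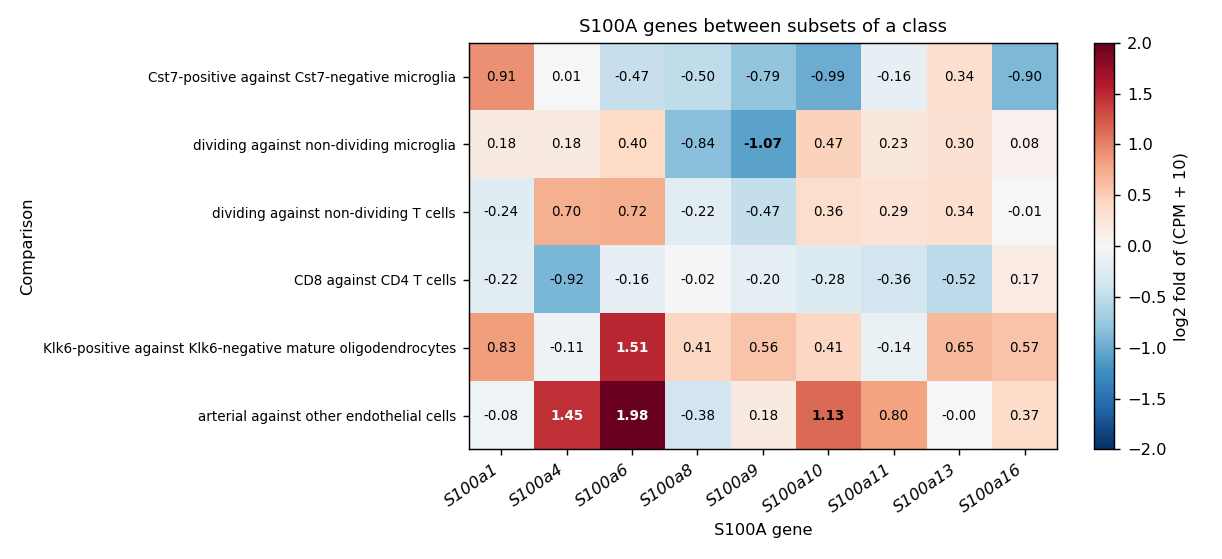
Log2 ratios of (CPM + 10) for the 9 S100A genes (columns) in 6 comparisons of subsets within a class (rows), first group over second, with red for higher in the first group and bold for a change of 1 or more. S100a6 in Klk6-positive oligodendrocytes (1.51) and S100a4, S100a6 and S100a10 in arterial endothelial cells (1.45, 1.98 and 1.13) are the bold values above 0, and S100a9 in dividing microglia (-1.07) is the bold value below 0.

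Microglia were low in the family. S100a13, at 87.1 CPM, and S100a1, at 44.1 CPM, were their only members found in 25% or more of the cells. In microglia with 3 or more UMIs of Cst7, a gene of activated microglia, 0 of 9 members were higher and 0 lower than in microglia with 0, where 1.21% of genes were higher and 3.85% lower. The groups held 4513 and 4605 cells with a median of 12472 and 5525 UMIs, and only 4 positive cells were from library 3. S100a1 was at 54.8 CPM (52.9 to 56.7) and 24.4 CPM (22.6 to 26.3), just under the limit and in the same order in libraries 1 (57.2 and 27.3) and 2 (53.6 and 26.2). Markers of oligodendrocyte precursors, the class highest in S100a1, were 19.1 and 5.36 CPM in these groups. Those of mature oligodendrocytes, a class with 292 CPM of S100a1, had the opposite order, at 43.8 and 199 CPM. The part of either class in the S100a1 values was not tested. S100a10 had the opposite order, at 6.69 and 23.1 CPM, which libraries 1 (5.47 and 23.0) and 2 (7.27 and 29.1) also showed, and without library 3 it passed the limit as lower. Its partner Anxa2 was at 50.5 CPM in the Cst7-positive and 9.52 CPM in the Cst7-negative cells, the reverse of S100a10. Markers of mature oligodendrocytes together were 43.8 and 199 CPM in these groups, and their part in the S100a10 values was not tested. Mature oligodendrocytes had 19.0 CPM of S100a10.

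Dividing against non-dividing microglia (228 and 9169 cells) had 0 members higher and 1 lower, where 2.2% of genes were higher and 0.399% lower. The member was S100a9, at 2.49 CPM (10 UMIs) and 16.2 CPM. Without cells at 10 or more UMIs of S100a8 and S100a9, the ratio of (CPM + 10) was 0.786 in place of 0.477, so the call was lost without a few cells. Median depth was 15478 UMIs in the dividing and 7192 in the non-dividing cells, and its part in the S100a9 values was not tested.

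Of 9 other S100 genes looked for, 8 were in the matrix, and 1, S100b, had a UMI in 25% or more of the cells of a class. S100b was at 614 CPM in oligodendrocyte precursors, 442 in mature oligodendrocytes and 206 in astrocytes, the classes that also held S100a1 and S100a16. S100a3 reached 34.6 CPM, also in precursors. The 10 binding partners were all found in 25% or more of the cells of some class. Anxa2 was highest in neutrophils, at 613 CPM, then NK cells (415) and endothelial cells (316), and stood at 155 CPM in T cells, where S100a10 was highest. Ahnak, a giant scaffold that binds S100A10 with annexin A2, was highest in endothelial cells, at 559 CPM. Anxa1 was highest in neutrophils (566 CPM), as S100a11 was. Of the 4 receptor genes, Bsg and Nptn passed 25% in some class. Tlr4 was at 69.3 CPM in neutrophils, 41.3 in border-associated macrophages and 13.3 in microglia. Ager was at most 10.5 CPM, in smooth muscle cells. Bsg, the basigin receptor, was highest in endothelial cells, at 11349 CPM, where S100a9 was at 6.29 CPM. Of 9 neutrophil granule and surface genes, 5 (Lcn2, Retnlg, Mmp9, Cxcr2 and Il1r2) passed 25% in some class. Lcn2, an iron-binding defence protein, was at 1889 CPM in endothelial cells and 2268 CPM in neutrophils when pooled, but most cells of these classes came from different libraries. Within library 3, Lcn2 had 17.3 UMIs per endothelial cell and 73.6 per neutrophil (25 cells), at median depths of 5996 and 6150 UMIs. Retnlg, Mmp9 and Cxcr2 exceeded 30 CPM only in neutrophils, but they are markers of the neutrophil gate, so the gating itself favours this outcome.

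Likeness between genes was measured as Pearson's r of log2(CPM + 10) over the 14 classes, among 7692 genes that reached 50 CPM in a class. It is a description, since classes share libraries and free RNA. S100a8 and S100a9 were the closest pair of members, at r = 0.997, and Clec4e (0.997 with S100a9), Rab44 (0.995 with S100a8) and Asprv1 (0.995 with S100a9) were nearest besides, all highest in neutrophils. For S100a8 and S100a9, neutrophils stood at 53359 and 67886 CPM and the next class at 105 and 160 CPM. The neutrophil class therefore weighs most in these values of r. S100a4 was most like Cd27 (0.963), Thy1 (0.959) and Cd247 (0.942), genes of T cells. S100a11 was most like Anxa2 (0.922), then Diaph1 and Adgre5 (0.913 each). S100a16 was nearest to Ankrd28 (0.933), Sft2d3 and Sppl2b, and S100a1 to Chpt1 (0.863), Fgfrl1 and Dhrs1. S100a6 was nearest to Pstpip1 (0.904), Cytip and AA467197, S100a10 to Riok1 (0.891), Rnf138 and Tmsb10, and S100a13 to Nr3c1 (0.779), Mif4gd and Arap2. Among members, S100a1 and S100a16 reached 0.783, S100a4 and S100a10 0.731, and S100a8 and S100a11 0.667. The head-to-head pair S100a1 and S100a13 reached 0.608, and the neighbours S100a4 and S100a6 0.582.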

How the data were processed

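The authors deposited 1 matrix of whole-number UMI counts per gene and barcode for the 3 libraries, made with Cell Ranger 3.1.0 and STAR on mm10 (the submitters' processing notes). Reads had been down-sampled across libraries, and no value was normalised per cell. Barcodes with at least 1000 UMIs and at most 30% mitochondrial UMIs were kept. A cell took the class with the highest summed marker UMIs if that sum was at least 3, from at least 2 markers, and at least 3 times that of every other class. No doublet caller was run. Cells in which no class met these limits stayed ungated, but gated cells could still hold some marker UMIs of other classes. Counts were summed by class as CPM with exact Poisson intervals, and shares had Clopper-Pearson intervals, both at 95%. A count of 0 allows 3 counts. Subsets with at least 30 cells were compared as (CPM + 10) ratios, called at 2-fold for genes with 20 or more UMIs. With 1 library per condition and the suffixes unpaired, no test was made. A further comparison among T cells is not reported here. The members and lists were chosen with earlier results of these data known. Named genes are the members, the gate markers, the lists and the 3 genes most like each member. Alternatives changed the gate, cell filters, pseudocount and libraries. The matrix had 0 columns of samples that were left out. The steps were tested on simulated cells. Gene identifiers matched GENCODE M21 for 99.6% of rows. Python 3.11.15, NumPy 2.4.6, SciPy 1.17.1, pandas 2.3.3 and Matplotlib 3.10.9 were used.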

Additional observations from a re-analysis of the deposited data

Results flagged for a closer look

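Signals of S100a8 and S100a9 were also present in barcodes that no comparison used. Under 1000 UMIs, 10 barcodes passed the neutrophil gate, 8 of them in library 1, with S100a8 at 13207 and S100a9 at 24481 CPM. Among kept cells left ungated, 91 had 3 or more neutrophil marker UMIs, with a median of 6841 UMIs. Their S100a8 was 35791 CPM and their S100a9 36229 CPM, and 64.8% and 65.9% of them had a UMI of the gene.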

How the results depend on the processing

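No paired analysis was possible because the matrix carries no sample columns and each condition has 1 library. Neutrophil levels moved with the gate and the library. S100a8 was 56773 CPM with 6 UMIs from 3 markers, 59560 with a 10-fold margin, 54741 at 2000 UMIs or more, and 90206, 57230 and 35956 CPM without libraries 1, 2 and 3. S100a9 was 72036, 75704, 69319, 105350, 70252 and 51808 CPM in the same order. The share of mature oligodendrocytes with an S100a9 UMI was 3.62%, 6.77% and 4.10% without libraries 1, 2 and 3, and 1.15% after thinning. The highest class was unchanged for 9 members in most settings, for 7 with the 10-fold margin (fewer than 50 oligodendrocyte precursors were left, and S100a1 and S100a16 changed) and for 8 without library 3 (S100a13). Members past 2-fold numbered 5, and 9 without library 2 (with S100a16 lower in Cst7-positive and S100a8 lower in dividing microglia, S100a6 higher in dividing T cells and S100a4 lower in CD8 cells added). They numbered 10 with a pseudocount of 1 CPM, and 4 or 5 in the other settings. In the Cst7 comparison, library 3 gave 4 positive and 1869 negative cells. The S100a16 call without library 2 therefore also contrasts libraries, and within library 1 its ratio was 0.816. The 4 called members other than S100a9 stayed called wherever their groups could be compared. S100a9 in dividing microglia lost its call in 4 settings, at ratios of 0.697 (10-fold margin), 0.584 (upper limit on UMIs and genes), 0.599 (without library 1) and 0.786 (without cells at 10 or more S100a8 and S100a9 UMIs, a setting chosen after seeing the data). The cause was not tested. Free RNA limits what low levels can show, and 1 library per condition gives no spread between animals.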
